A study of Mus musculus with 13 samples.

Results

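The genes of blood coagulation and of the plasminogen system described here were F3, F5, F7, F10, F13a1, Thbd, Plat, Plau and Plaur, 9 of the 19505 genes named on the array. They were taken by gene symbol, and each had 1 feature. Coagulation starts when F3 (tissue factor), a membrane protein, binds factor VII (F7). Together they activate factor X (F10), which with its cofactor factor V (F5) makes thrombin. Thrombin turns fibrinogen into fibrin, factor XIII (whose catalytic A subunit is F13a1) crosslinks the fibrin, and thrombomodulin (Thbd) diverts thrombin to the activation of protein C, an anticoagulant. Fibrin is dissolved by plasmin, which tissue-type (Plat) and urokinase-type (Plau) plasminogen activators release from plasminogen, and the urokinase receptor Plaur holds urokinase at the cell surface. In tumours these proteins are known for fibrin deposition, matrix breakdown and cell migration, and many of them come from host cells such as macrophages as well as from the tumour cells.

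Expression was measured with Clariom S arrays in tumours grown after 1 of 3 lines of 4T1, a mouse mammary carcinoma, had been placed in a mammary fat pad. The hosts were WT BALB/c mice or BALB/c mice lacking Nlrx1 (Nlrx1-/-), a mitochondrial regulator of innate immune signalling, and no further treatment was given. The lines were untransduced parental 4T1, 4T1OE, which overexpresses NLRX1, and its overexpression control 4T1OE-CTL, so within a line the labels of the tumours differ in the host genotype alone. Each of the 6 combinations of host and line had 2 arrays, and each array held pooled RNA. The size of the pools, the age of the mice, and the vector, its promoter and the clonality of the lines were not given in the sources used here. For that reason the p-values measure the spread between pools, and what sets 1 transduced line apart from another cannot be told apart from the transgene. Values are log2 expression values as deposited, so 1 unit is a doubling, and levels of different genes are not compared.

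The arrays had medians of 5.89 to 6.25, and the number of arrays limits the precision. The standard deviation of an array's values differed by line. It was 3.09 to 3.12 on the 4T1OE arrays and 2.78 to 3.07 on the 4T1OE-CTL arrays. Results with this spread as a covariate are given below. The array of Nlrx1-/- parental replicate 1 carries a recommendation to exclude it in its own label, had the lowest median correlation with the other arrays (r = 0.896 across features), and was left out of the fits. For most of the 9 genes its values are given below beside the others. The labels of the overexpressing line were checked on Nlrx1 itself, whose level in 4T1OE tumours exceeded that in 4T1OE-CTL by 3.39 (SE 0.34, limma adjusted p = 0.00227). Over the lines the host label did not show in Nlrx1, which differed by -0.07 between Nlrx1-/- and WT hosts (limma adjusted p = 1.00). That value includes the 4T1OE tumours, where Nlrx1 was raised and differed by 0.65. In parental tumours it differed by -0.03. In 4T1OE-CTL tumours it differed by -0.81 (limma adjusted p = 0.572), with the Nlrx1-/- arrays under the WT arrays, as for 18% of all features. Of 9 markers of epithelial tumour cells, 0 lay under the negative controls on the parental arrays, and 1 or 2 did so on each array of the transduced lines.

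The negative control features of each array gave a measure of background. Levels of F10, F13a1, Plat, Plau and Plaur lay above the median of the array's negative controls on 12 of 12 arrays. F5 did so on 8 arrays, which were all those of the transduced lines. Thbd was above it on 8 arrays, F3 on 5 and F7 on 1. The plot of single arrays shows both the values and these background medians.

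**Figure D1:**
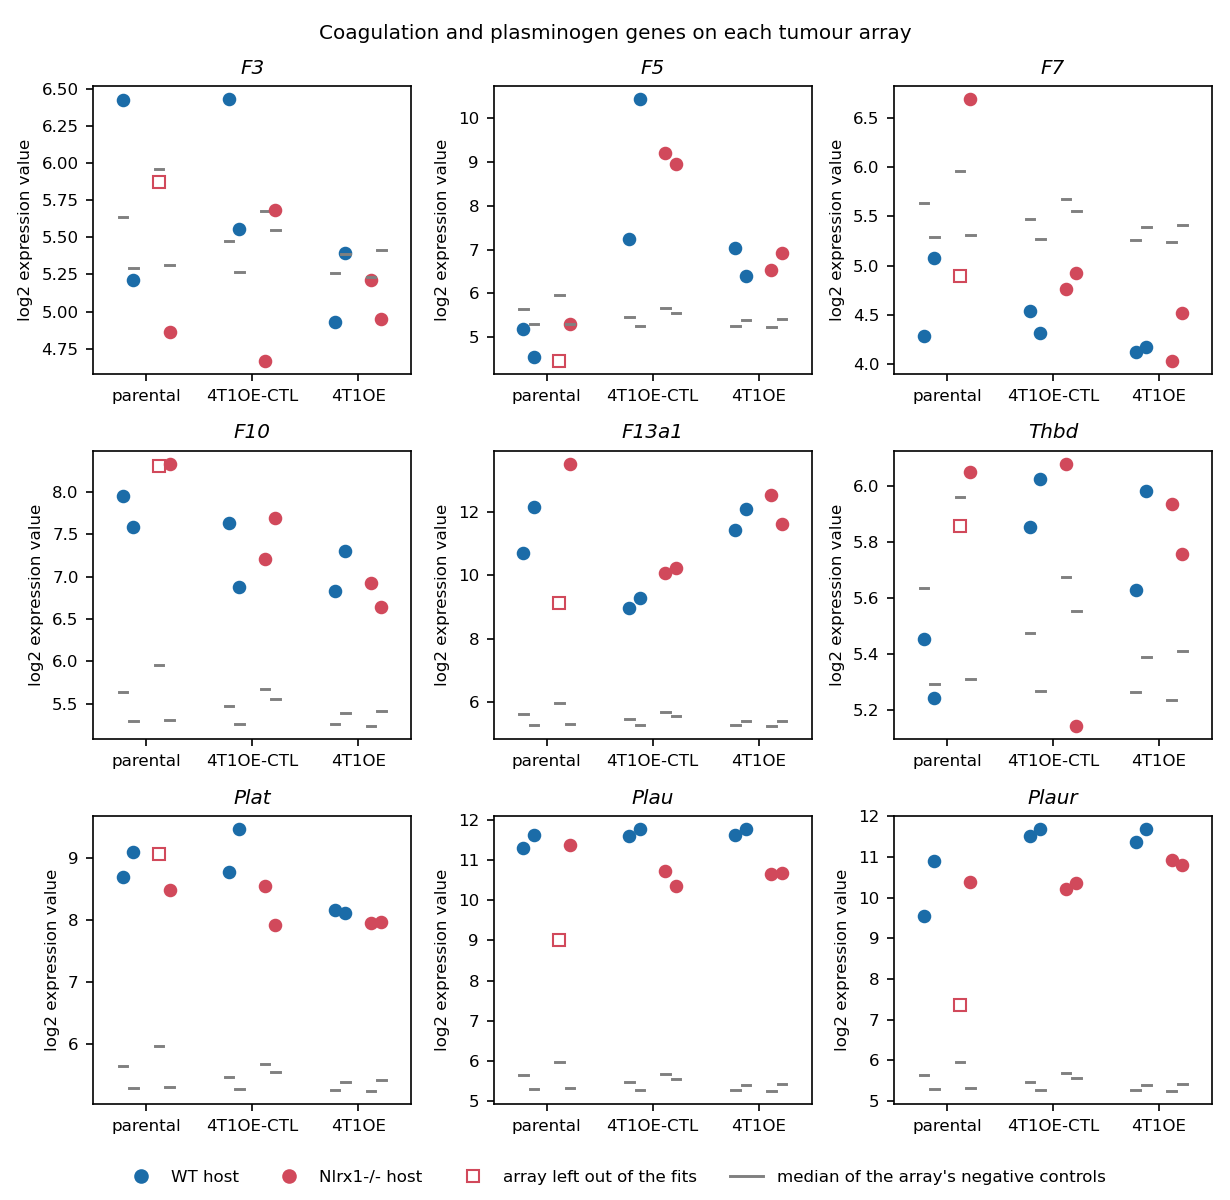
Log2 expression value (vertical axes, with a scale of its own for each gene) of the 9 genes on every tumour array, by cell line and host. Blue circles are WT hosts, red circles Nlrx1-/- hosts, the open square is the array left out of the fits, and grey dashes are the medians of each array's negative controls. F5 sits at or under the dashes in parental tumours and rises to 10.44 in a 4T1OE-CTL tumour pool, whereas F13a1 is lowest in the 4T1OE-CTL pools among the fitted arrays.

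F5 and F13a1 were the genes of the 9 that differed between lines, and they did so in opposite directions. F5 was highest in 4T1OE-CTL tumours, intermediate in 4T1OE and at background in parental tumours. F13a1 was lowest in 4T1OE-CTL tumours and higher in both other lines. In 4T1OE against 4T1OE-CTL tumours 1 of the 9 genes was higher and 1 lower at an adjusted p under 0.05 (limma, Benjamini-Hochberg over all 22206 features), where 4.73% of all features passed. In 4T1OE-CTL against parental tumours it was again 1 higher and 1 lower, where 2.59% of all features passed. In 4T1OE against parental tumours 0 of 9 passed, against 1.33% of all features. An unadjusted limma p under 0.05 was found for 3, 5 and 5 of the 9 genes in these 3 comparisons. Over all 22206 features it was found for 5363, 3532 and 3073. The median difference of the 9 genes was -0.42, 0.01 and -0.28 in these comparisons, beside -0.05, 0.02 and -0.03 over all features. The first and the second comparison share the 4 arrays of 4T1OE-CTL tumours, so the opposite signs of their differences are not independent of each other.

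The window from 250 bases before to 50 bases after the start of F5, on chr1:164151585-164151884 (plus strand, GRCm38.p6, from RefSeq), is printed because F5 had the largest difference between lines of the 9 genes. Capitals mark the Sp1 box GGGCGG.
F5: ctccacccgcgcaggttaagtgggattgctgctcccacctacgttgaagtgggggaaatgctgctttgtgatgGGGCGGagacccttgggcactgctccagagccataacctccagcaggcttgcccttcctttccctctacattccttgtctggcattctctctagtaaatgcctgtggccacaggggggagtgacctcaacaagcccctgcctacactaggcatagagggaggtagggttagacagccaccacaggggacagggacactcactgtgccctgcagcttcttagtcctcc
The box stands at position -177 from the start. At least 1 such box, on either strand, was found in 35.7% of all 32851 windows of this length. Neither the AP-1 site TGANTCA (in 7.81% of all windows), the PU.1/ETS core GAGGAA (28.3%), the core of the interferon-stimulated response element (3.44%) nor the gamma-activated site TTCNNNGAA (8.3%) was found in the F5 window on either strand.

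Factor V, the cofactor that speeds up thrombin formation, had values of 5.18 and 4.56 in parental tumours of WT hosts and 5.30 in those of Nlrx1-/- hosts (4.45 on the array left out). In 4T1OE tumours F5 stood at 7.03 and 6.40 in WT hosts and at 6.55 and 6.93 in Nlrx1-/- hosts. In 4T1OE-CTL tumours F5 stood at 7.24 and 10.44 in WT hosts and at 9.20 and 8.96 in Nlrx1-/- hosts. Every 4T1OE-CTL array was thus above every 4T1OE array, and every 4T1OE array was above every parental array. Over all features 7.13% had every 4T1OE array under every 4T1OE-CTL array. The share with every 4T1OE array above every fitted parental array was 9.96%. The WT 4T1OE-CTL pools were the farthest apart of any pair of replicates. Means were 5.02 ± 0.40 (SD, n = 3) in parental, 6.73 ± 0.30 (n = 4) in 4T1OE and 8.96 ± 1.32 (n = 4) in 4T1OE-CTL tumours.

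All parental arrays were at or under their negative controls. With those control medians as the floor, mean F5 rose by 3.55 (log2) from parental to 4T1OE-CTL tumours. This value carries no sampling error and is no lower limit on the effect. The fitted difference was 3.91 (SE 0.56, 95% confidence interval 2.70 to 5.13, limma adjusted p = 0.00372). This fitted difference kept its call in 22 of 22 alternative settings, with values of 3.23 to 5.64. In 4T1OE against 4T1OE-CTL tumours F5 was lower, with a fitted difference of -2.23 (SE 0.51, 4.70-fold, limma adjusted p = 0.0341). With the same floor, mean F5 was 1.31 higher in 4T1OE than in parental tumours. The fitted difference there was 1.68 (95% confidence interval 0.46 to 2.89) and did not pass (limma adjusted p = 0.189). The difference between 4T1OE and 4T1OE-CTL was -2.12 within WT hosts (limma adjusted p = 0.547) and -2.35 within Nlrx1-/- hosts (limma adjusted p = 0.145).

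The call of F5 between 4T1OE and 4T1OE-CTL tumours was the less stable. It was lost in 9 of 22 settings. The limma adjusted p was 0.109 with all 12 arrays, 0.0536 with 1 mean per group and 0.267 with the spread of each array's values as a covariate (difference -3.01). It was 0.0649 without WT 4T1OE replicate 1, 0.101 without WT 4T1OE replicate 2, 0.116 without Nlrx1-/- 4T1OE replicate 1 and 0.0851 without Nlrx1-/- 4T1OE replicate 2. It was 0.0657 without Nlrx1-/- 4T1OE-CTL replicate 1 and 0.0805 without replicate 2 of that group. Without the 4 fitted arrays whose values had a standard deviation under 3, of which 3 were 4T1OE-CTL arrays, the difference was -3.84. That fit kept a single 4T1OE-CTL array, WT 4T1OE-CTL replicate 2, which had the highest F5 value of all arrays (10.44).

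The list of T cell markers, 6 measured, stood higher on the 4T1OE-CTL than on the fitted parental arrays, and the 4T1OE arrays overlapped with both. The median deviation of that list (each gene's value minus its median over the fitted arrays) ran from -0.50 to -0.12 in parental, from -0.19 to 2.74 in 4T1OE and from 0.09 to 3.93 in 4T1OE-CTL tumours. All 6 markers had positive differences between 4T1OE-CTL and parental tumours, with a median of 2.04. In limma 0 passed, and 3 were under 0.05 before adjustment. Between 4T1OE and 4T1OE-CTL tumours all 6 were negative (median -1.18), with 0 passing in limma and 0 under 0.05 before adjustment. Nlrx1-/- 4T1OE replicate 1 deviated by 2.74 with F5 at 6.55. Nlrx1-/- 4T1OE-CTL replicate 2 deviated by 0.09 with F5 at 8.96. On the 3 fitted parental arrays 3 or 4 of the 6 lay under the negative controls. On the array left out, T cell markers deviated by 2.34 and F5 was at 4.45, under its negative controls. Skeletal muscle markers, 8 measured, had differences between 4T1OE-CTL and parental tumours that were positive in 8 of 8 (median 3.99, 0 passed in limma, 5 at an unadjusted p under 0.05) and deviations of -0.76 to -0.50 in parental and 0.00 to 4.31 in 4T1OE-CTL tumours. In 4T1OE tumours the muscle list ran from -0.95 to 5.85, and its highest array, WT 4T1OE replicate 1, had F5 at 7.03. Hepatocyte markers, 5 measured and relevant because the liver makes most plasma factor V, had 2 to 4 members under the negative controls on each array and 0 that passed between any pair of lines in limma (1 under 0.05 before adjustment, between 4T1OE and 4T1OE-CTL). The 7 platelet and megakaryocyte markers measured, whose cells store factor V, had 3 or 4 members under the negative controls on each array and likewise 0 passed (1 under 0.05 before adjustment, between 4T1OE and 4T1OE-CTL). Mast cell markers were positive in 4 of 6 between 4T1OE-CTL and parental tumours (median 1.17), with 0 passing in limma and 5 under 0.05 before adjustment. Epithelial tumour cell markers went the other way, with 9 of 9 negative between 4T1OE-CTL and parental tumours (median -2.97) and 6 of 9 passing in limma. Their deviation was 1.15 to 2.84 on the fitted parental arrays and -1.51 to 0.64 on the 4T1OE-CTL arrays. The part of T cell, muscle, mast cell or epithelial content in the F5 difference was not tested.

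The start of F13a1 is annotated at 2 places, with windows on chr13:37049164-37049463 and chr13:37050195-37050494 (minus strand, GRCm38.p6, from RefSeq). They are printed because F13a1 was the gene of the 9 that went the other way, and they are read in the direction of the gene. Capitals mark the PU.1/ETS core GAGGAA.
F13a1, start at the lower coordinate: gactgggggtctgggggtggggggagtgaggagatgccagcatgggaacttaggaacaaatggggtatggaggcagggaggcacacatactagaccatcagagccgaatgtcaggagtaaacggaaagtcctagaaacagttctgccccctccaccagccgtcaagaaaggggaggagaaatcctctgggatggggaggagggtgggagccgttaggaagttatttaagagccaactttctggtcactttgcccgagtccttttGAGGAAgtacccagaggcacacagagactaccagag
F13a1, start at the higher coordinate: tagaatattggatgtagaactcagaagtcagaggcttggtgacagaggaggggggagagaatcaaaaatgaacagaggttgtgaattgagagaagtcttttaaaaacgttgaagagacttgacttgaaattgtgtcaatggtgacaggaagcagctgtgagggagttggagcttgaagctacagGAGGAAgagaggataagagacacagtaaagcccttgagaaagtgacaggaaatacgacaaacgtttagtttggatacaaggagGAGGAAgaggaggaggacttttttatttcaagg
The core stands at position 15 in the first window and at positions -66 and 18 in the second. None of the other motifs named for F5 was found in either window.

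F13a1, made in macrophages, monocytes and megakaryocytes, was at 10.70 and 12.17 in parental tumours of WT hosts and at 13.52 in those of Nlrx1-/- hosts (9.14 on the array left out). In 4T1OE tumours F13a1 was at 11.44 and 12.09 in WT hosts and at 12.55 and 11.61 in Nlrx1-/- hosts. In 4T1OE-CTL tumours F13a1 was at 8.97 and 9.28 in WT hosts and at 10.09 and 10.23 in Nlrx1-/- hosts. Every 4T1OE-CTL array lay under every fitted array of the other lines, while 4T1OE and parental arrays overlapped. Over all features 9.39% had every 4T1OE-CTL array under every 4T1OE array, and 6.42% had every one under every fitted parental array. The array left out was the exception, since it fell among the 4T1OE-CTL values.

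Mean F13a1 was 12.13 ± 1.41 (SD, n = 3) in parental, 9.64 ± 0.61 (n = 4) in 4T1OE-CTL and 11.92 ± 0.50 (n = 4) in 4T1OE tumours. Its log2 level in 4T1OE tumours exceeded that in 4T1OE-CTL tumours by 2.28 (SE 0.39, 4.85-fold, limma adjusted p = 0.0146). The fitted difference between 4T1OE-CTL and parental tumours was -2.66 (SE 0.42, 6.31-fold, limma adjusted p = 0.00715). Tumours of 4T1OE and parental cells differed by -0.38 (95% confidence interval -1.30 to 0.54, limma adjusted p = 0.748), a value that turned to 0.54 with all 12 arrays and to 0.15 without Nlrx1-/- parental replicate 2. Within hosts the difference between 4T1OE and 4T1OE-CTL was 2.64 in WT (limma adjusted p = 0.146) and 1.92 in Nlrx1-/- (limma adjusted p = 0.0783).

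The F13a1 difference between 4T1OE and 4T1OE-CTL tumours lost its call with all 12 arrays (limma adjusted p = 0.183). It also did so with the spread of each array's values as a covariate (1.65, adjusted p = 0.501). Without WT 4T1OE replicate 2 (2.02, adjusted p = 0.0609) or Nlrx1-/- 4T1OE replicate 1 (2.24, adjusted p = 0.0569) the call was lost too. Without the 4 arrays of low spread, which left a single 4T1OE-CTL array, the difference was 2.31. The fall from parental to 4T1OE-CTL tumours lost its call with all 12 arrays (-1.74, limma adjusted p = 0.425) and without Nlrx1-/- parental replicate 2 (-2.13, adjusted p = 0.0840).

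Macrophage markers moved with F13a1 between 4T1OE and 4T1OE-CTL tumours, but not in every comparison with parental tumours. Of the 11 measured, 11 were positive in 4T1OE against 4T1OE-CTL tumours and 6 passed (median difference 1.35). Among these were the scavenger receptor Cd163 at 2.00 and the folate receptor Folr2 at 3.14. With the standard deviation of each array as a covariate these calls were lost. There 0 of all features were called higher and 4 lower, against 820 and 231. The list's deviation was 0.37 to 0.82 on the 4T1OE arrays, -1.90 to -0.21 on the 4T1OE-CTL arrays and -1.05 to 0.01 on the fitted parental arrays. The 4T1OE-CTL array at -0.21 was WT replicate 2, whose values had a standard deviation of 3.07. On the other arrays of that line it was 2.78 to 2.91. Between 4T1OE-CTL and parental tumours 10 of 11 were negative (median -0.52, beside -2.66 for F13a1). In limma 0 passed, and 4 were under 0.05 before adjustment. Between 4T1OE and parental tumours 11 of 11 were positive (median 0.85), while F13a1 differed by -0.38. There too 0 passed in limma, with 4 under 0.05 before adjustment. All 11 were above the negative controls on every fitted array. On the array left out the macrophage list deviated by -1.96 and F13a1 was low too. In these bulk tumours fewer cells of a type and less RNA per cell cannot be told apart, and the part of macrophage content in the F13a1 difference was not tested, nor was that of the epithelial content given beside F5. Of 5 measured monocyte markers Ccr2 (1.56) was higher and Plac8 (-2.18) lower in 4T1OE against 4T1OE-CTL tumours, with 4 of 5 negative (median -0.75). Between 4T1OE-CTL and parental tumours 2 of 5, Ly6c2 (4.61) and Plac8 (3.97), were higher, opposite to F13a1. The monocyte list ranged over -0.36 to 0.31 in 4T1OE, 0.00 to 1.63 in 4T1OE-CTL and -0.15 to 0.81 in parental tumours. Platelet and megakaryocyte markers ranged over -0.30 to 0.11 in 4T1OE, -0.13 to 0.34 in 4T1OE-CTL and 0.00 to 0.32 in parental tumours, and 0 of 7 passed between lines in limma (1 at an unadjusted p under 0.05 between 4T1OE and 4T1OE-CTL).

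**Figure D2:**
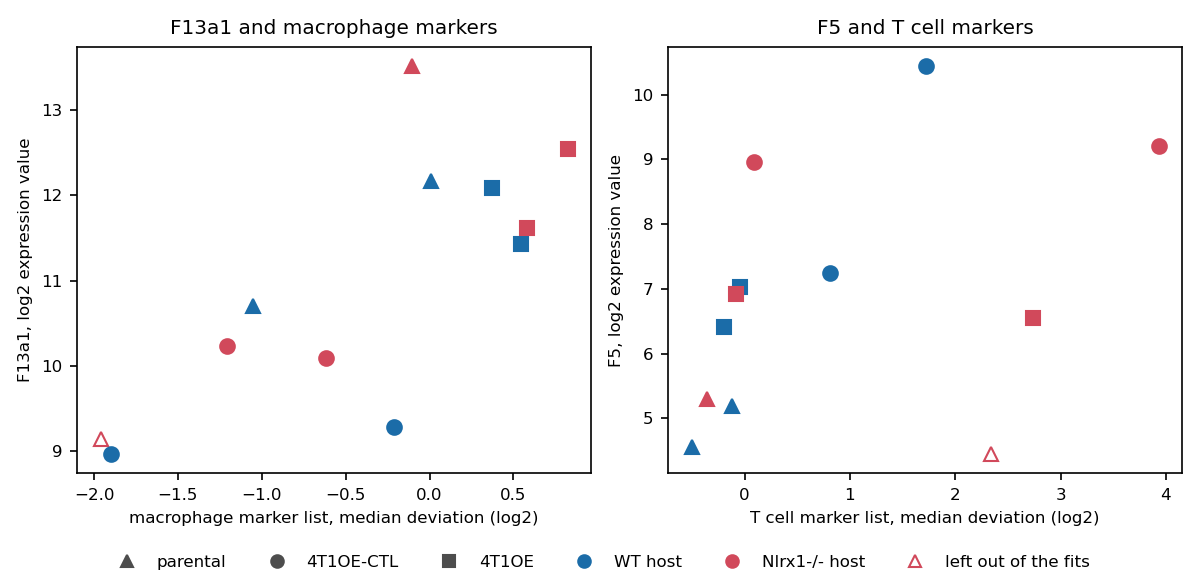
Left, F13a1 (log2 expression value) against the macrophage markers' median deviation (log2) on each array, and right, F5 against the T cell markers' deviation. Shapes are cell lines, colours are hosts, and open symbols are the array left out of the fits. The 4T1OE arrays (squares) lie at macrophage deviations of 0.37 to 0.82 and F13a1 values of 11.44 to 12.55, and F5 spans 7.24 to 10.44 over the 4T1OE-CTL arrays (circles).

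**Figure D3:**
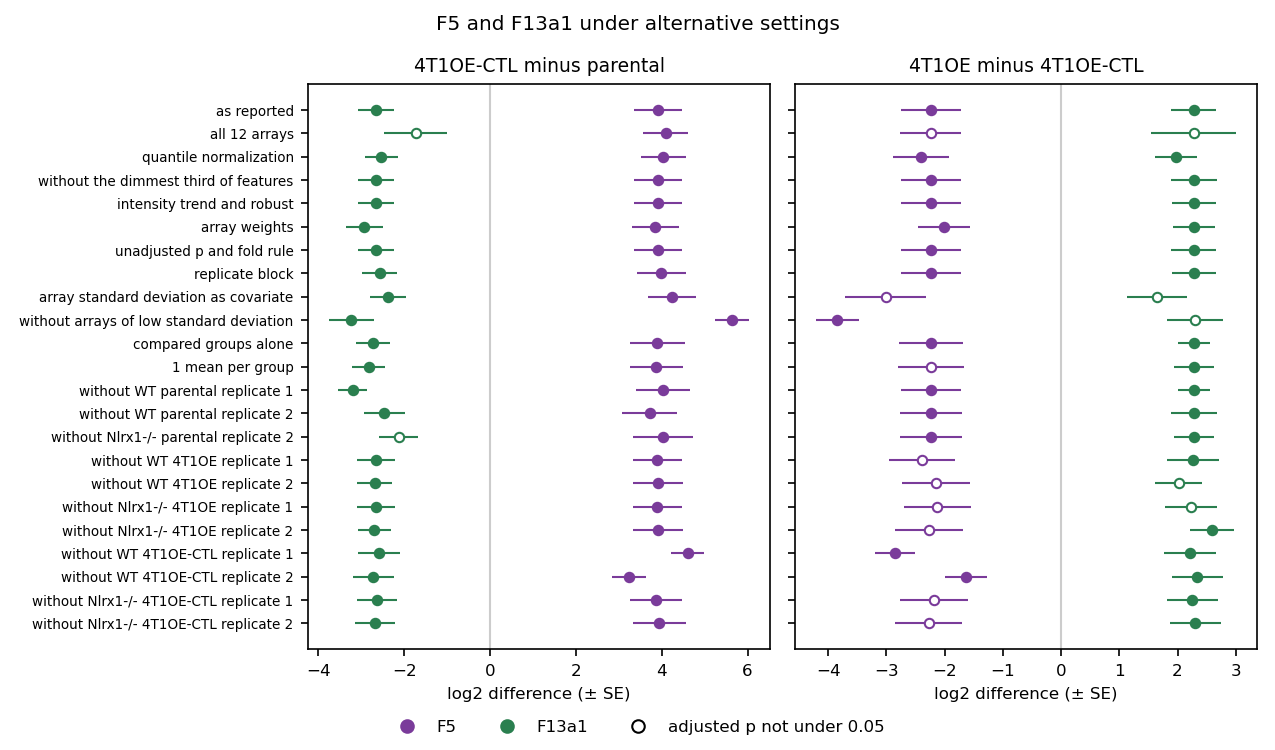
Fitted log2 differences (horizontal axes, with standard errors) of F5 (purple) and F13a1 (green) as reported and under each alternative setting, for 4T1OE-CTL minus parental (left) and 4T1OE minus 4T1OE-CTL (right). Open symbols have an adjusted p that is not under 0.05. F5 stays between 3.23 and 5.64 with filled symbols throughout the left panel, and most open symbols are in the right panel.

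The initiating side of coagulation was near background in these tumours. F3 (tissue factor, the cell-surface trigger) was at 6.42 and 5.21 in WT and at 4.86 in Nlrx1-/- parental tumours (5.87 on the array left out). F3 was at 4.93 and 5.39 in WT and at 5.21 and 4.95 in Nlrx1-/- 4T1OE tumours, and at 6.43 and 5.55 in WT and at 4.67 and 5.68 in Nlrx1-/- 4T1OE-CTL tumours. The lines overlapped, and WT parental replicate 1 and WT 4T1OE-CTL replicate 1 were the highest. The difference between 4T1OE and 4T1OE-CTL tumours was -0.46 (95% confidence interval -1.20 to 0.28, limma adjusted p = 0.422), an interval that reaches past a halving and includes no change.

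F7 (factor VII, the partner of tissue factor, made mainly in liver) ranged from 4.03 to 6.69 over the 12 arrays, and the single array above its negative controls was Nlrx1-/- parental replicate 2. All 8 arrays of the transduced lines were under their negative controls, at 4.03 to 4.93, so no size is given for the difference between those lines. The fitted parental arrays were at 4.28, 5.07 and 6.69 and overlapped those of 4T1OE, with 2 of 3 under their negative controls. A difference from parental tumours would rest on the array at 6.69, and none passed (limma adjusted p = 0.123 for 4T1OE).

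F10 (factor X, the enzyme that cuts prothrombin) was measurable on every array. It was at 7.95 and 7.58 in WT and at 8.32 in Nlrx1-/- parental tumours, and at 8.30 on the array left out. F10 was at 6.83 and 7.30 in WT and at 6.92 and 6.65 in Nlrx1-/- 4T1OE tumours, and at 7.64 and 6.87 in WT and at 7.21 and 7.69 in Nlrx1-/- 4T1OE-CTL tumours. All 4T1OE arrays were under all parental arrays, and 4T1OE-CTL arrays overlapped with both. The difference between 4T1OE and parental tumours was -1.04 (SE 0.27) and did not pass (limma adjusted p = 0.0905). Over all features 7.87% had every 4T1OE array under every fitted parental array. For 4T1OE-CTL against parental tumours the F10 difference was -0.62 (limma adjusted p = 0.291), and for 4T1OE against 4T1OE-CTL it was -0.43 (limma adjusted p = 0.311).

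Thbd, the anticoagulant thrombin receptor of vessel walls, lay between 5.14 and 6.08 over the 12 arrays. Its line means were 5.58 ± 0.42 (SD, n = 3) in parental, 5.77 ± 0.43 (n = 4) in 4T1OE-CTL and 5.83 ± 0.16 (n = 4) in 4T1OE tumours, closer together than the arrays within the first 2 lines. The difference between 4T1OE and 4T1OE-CTL was 0.05 (95% confidence interval -0.50 to 0.60, limma adjusted p = 0.920).

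Among the plasminogen activators, Plat (tissue-type activator) was at 8.69 and 9.11 in WT and at 8.48 in Nlrx1-/- parental tumours, and at 9.07 on the array left out. Plat was at 8.17 and 8.12 in WT and at 7.96 and 7.97 in Nlrx1-/- 4T1OE tumours, and at 8.79 and 9.47 in WT and at 8.55 and 7.93 in Nlrx1-/- 4T1OE-CTL tumours. The 4T1OE arrays lay close together and under every parental array, and Nlrx1-/- 4T1OE-CTL replicate 2 was lower still. Over all features 7.87% had every 4T1OE array under every fitted parental array. The difference between 4T1OE and 4T1OE-CTL was -0.63 (SE 0.24) and did not pass (limma adjusted p = 0.135), except after quantile normalization (-0.89, limma adjusted p = 0.0318). Against parental tumours Plat in 4T1OE differed by -0.62 (limma adjusted p = 0.301).

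Plau (urokinase) had like values in the 3 lines of WT hosts. It was at 11.31 and 11.64 in WT and at 11.38 in Nlrx1-/- parental tumours, and at 9.001 on the array left out. Plau was at 11.63 and 11.78 in WT and at 10.65 and 10.69 in Nlrx1-/- 4T1OE tumours, and at 11.61 and 11.77 in WT and at 10.74 and 10.35 in Nlrx1-/- 4T1OE-CTL tumours. Within each transduced line both Nlrx1-/- arrays were thus under both WT arrays, as for 18% of all features in 4T1OE-CTL and 16.6% in 4T1OE tumours. The fitted Nlrx1-/- parental array was among the WT values. Differences between lines were at most 0.19 in size, with 0.07 between 4T1OE and 4T1OE-CTL (95% confidence interval -0.42 to 0.56, limma adjusted p = 0.881), -0.19 between 4T1OE-CTL and parental and -0.12 between 4T1OE and parental tumours.

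Plaur (the urokinase receptor) was at 9.56 and 10.90 in WT and at 10.38 in Nlrx1-/- parental tumours, and at 7.35 on the array left out. Plaur was at 11.37 and 11.68 in WT and at 10.92 and 10.81 in Nlrx1-/- 4T1OE tumours, and at 11.52 and 11.69 in WT and at 10.21 and 10.36 in Nlrx1-/- 4T1OE-CTL tumours. Within each transduced line the WT arrays were again above the Nlrx1-/- arrays, with the same shares of all features as given for Plau. Over parental tumours Plaur was up by 1.03 in 4T1OE (SE 0.35, limma adjusted p = 0.194) and by 0.78 in 4T1OE-CTL (SE 0.35, limma adjusted p = 0.294), and neither passed.

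**Figure D4:**
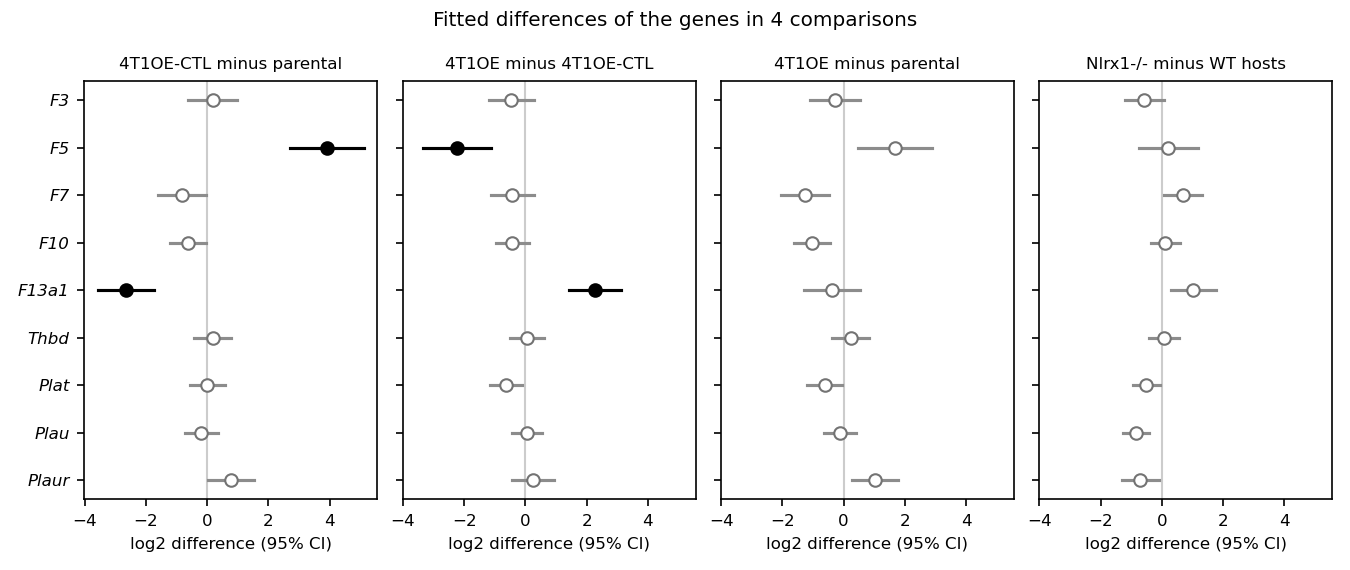
Fitted log2 differences with 95% confidence intervals (horizontal axes) of the 9 genes in 4 comparisons, 3 between cell lines and 1 between hosts. Filled black symbols passed an adjusted p of 0.05 over all features, and open symbols did not. F5 (3.91 and -2.23) and F13a1 (-2.66 and 2.28) are the filled symbols, and the F5 differences from parental tumours and all F7 differences include arrays at background.

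Between Nlrx1-/- and WT hosts 0 of the 9 genes passed in limma, as 0% of all features did, while 5 of the 9 and 955 of the 22206 features had an unadjusted p under 0.05. The largest by its unadjusted p was Plau, with a difference of -0.84 (SE 0.19, unadjusted p = 0.00100, limma adjusted p = 1.00). It was -1.14 in 4T1OE-CTL tumours (limma adjusted p = 0.345), -1.04 in 4T1OE tumours (limma adjusted p = 1.00) and -0.10 in parental tumours. Plaur differed by -0.71 over the lines, by -1.32 in 4T1OE-CTL tumours (limma adjusted p = 0.381), by -0.66 in 4T1OE tumours and by 0.15 in parental tumours. The parental values rest on 1 Nlrx1-/- array. With all 12 arrays they became -1.29 for Plau and -1.36 for Plaur, so they were then no smaller than those of the transduced lines. F13a1 differed by 1.03 (unadjusted p = 0.00998, limma adjusted p = 1.00), and its differences were 1.04 in 4T1OE-CTL, 0.32 in 4T1OE and 2.08 in parental tumours, the last with 1 Nlrx1-/- array. With all 12 arrays the F13a1 difference between hosts was 0.42 over the lines, and that in parental tumours turned to -0.11. Plat differed by -0.50 over the lines. F5 differed by 0.21 (95% confidence interval -0.76 to 1.17).

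Within single lines the hosts likewise gave 0 of 9 genes that passed in limma. In 4T1OE-CTL tumours 0% of all features passed, with 3 of the 9 genes and 2121 features at an unadjusted p under 0.05. In 4T1OE tumours 0% passed, with 1 of 9 genes and 194 features at that level. In parental tumours 0% passed, with 2 of 9 genes and 1044 features at that level. Every Nlrx1-/- array was under every WT array for Plat, Plau and Plaur, 3 of the 9 genes, both in 4T1OE-CTL tumours (18% of all features) and in 4T1OE tumours (16.6% of all features).

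The fitted differences of neutrophil markers between hosts were negative, like those of Plau and Plaur, in the transduced tumours. Of the 6 measured, 6 were negative in 4T1OE-CTL (median -1.67) and 6 in 4T1OE tumours (median -1.29), while 6 were positive in parental tumours (median 0.49, with 1 Nlrx1-/- array). On the array left out the neutrophil list deviated by -1.27, under both WT parental arrays (-1.19 and -0.01). None passed in limma, with 1 of 6 at an unadjusted p under 0.05 in each transduced line. The list's deviation ran from -1.63 to 0.69 over the Nlrx1-/- arrays and from -1.19 to 1.59 over the WT arrays. In 4T1OE tumours the Nlrx1-/- arrays (-0.74 and -0.62) were under the WT arrays (0.00 and 1.45). In 4T1OE-CTL tumours the hosts overlapped. Nlrx1-/- 4T1OE-CTL replicate 2 was at 0.69, above WT 4T1OE-CTL replicate 2 (0.20), although it had the lowest fitted Plau value (10.35). Epithelial tumour cell markers were negative in 9 of 9 over the lines (median -1.04, 0 passed in limma, 4 at an unadjusted p under 0.05). By line they were negative in 8 of 9 in 4T1OE-CTL (median -1.51) and in 9 of 9 in parental tumours (median -1.03) but positive in 7 of 9 in 4T1OE tumours (median 0.13), where Plau and Plaur had negative differences. The part of either cell content in the Plau and Plaur values was not tested.

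Overexpression was also compared within each host. In WT hosts 0 of 9 genes passed in limma (3 at an unadjusted p under 0.05), where 0.0135% of all features passed. In Nlrx1-/- hosts 0 of 9 passed, with 2 at an unadjusted p under 0.05 beside 4611 features. There 1.19% of all features passed. That count, 265 features, was 1 when the left-out array was fitted too, 1 when these 2 groups were fitted by themselves and 0 to 1341 with each array left out in turn. The test of the difference between hosts, an interaction of overexpression and host, gave 0 of 9 genes (0 at an unadjusted p under 0.05), where 0% of all features passed and 726 had an unadjusted p under 0.05. Its values ran from -0.72 for F13a1 to 0.74 for F3, with standard errors of 0.69 for both, so at this number of arrays the effects in the hosts could not be separated.

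Of the other genes of both systems, 1 passed between lines. Of 24 measured genes of the wider coagulation list (factors, fibrinogen, thrombin receptors and anticoagulants), 9 were above the negative controls on all 12 arrays and 9 on none, among them the liver products F11, F12, Proc and Serpinc1. Between 4T1OE-CTL and parental tumours 0 were higher and 1 was lower, where 2.59% of all features passed. That gene was F2r, the main thrombin receptor of many mesenchymal cells. Its mean was 10.83 ± 0.46 (SD, n = 4) against 12.29 ± 0.11 (n = 3) on the fitted arrays. The difference was -1.36 (SE 0.27, limma adjusted p = 0.0228). On the array left out F2r was at 10.08, under every 4T1OE-CTL array (10.38 to 11.26). With that array the parental mean was 11.73 ± 1.11 (n = 4). The alternative settings were not run for F2r. Between 4T1OE and 4T1OE-CTL tumours 0 of 24 passed in limma (4 at an unadjusted p under 0.05, beside 5363 of all 22206 features). Between 4T1OE and parental tumours 0 of 24 passed (4 at that level, beside 3073 features). There F2r differed by -1.04 (limma adjusted p = 0.0905). Between hosts 0 of 24 passed in limma (2 at that level, beside 955 features). Markers of fibroblasts, in which F2r is common, were negative in 5 of 7 between 4T1OE-CTL and parental tumours (median -0.92, 1 passed), and their part in the F2r difference was not tested.

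Tfpi, the inhibitor of the tissue factor and factor VII complex, was at 8.32 ± 0.37 (SD, n = 4) in 4T1OE against 7.48 ± 0.16 (n = 4) in 4T1OE-CTL tumours, a difference of 0.84 that did not pass (limma adjusted p = 0.0789) although the arrays did not overlap. Over all features 9.39% had every 4T1OE array above every 4T1OE-CTL array. Markers of endothelial cells, the usual source of Tfpi, were positive in 9 of 10 in that comparison (median 0.97, 3 passed). With the standard deviation of each array as a covariate 0 of all features were called higher there. The part of endothelial content in the Tfpi values was not tested. Procr, the endothelial receptor for protein C, was at 6.33 ± 0.79 (SD, n = 3) in parental, 7.24 ± 0.61 (n = 4) in 4T1OE-CTL and 7.52 ± 0.09 (n = 4) in 4T1OE tumours. Its difference between 4T1OE and parental tumours was 1.22 (limma adjusted p = 0.161).

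Of 9 measured genes of the wider plasminogen list, 4 were above the negative controls on all 12 arrays and 3 on none, namely Plg (plasminogen itself, a liver product), Serpinb2 (an inhibitor of urokinase) and Serpinf2 (the inhibitor of plasmin). Between any pair of lines and between hosts 0 of 9 passed in limma. At an unadjusted p under 0.05 there were 2 between 4T1OE and 4T1OE-CTL (beside 5363 of all features) and 0 between 4T1OE-CTL and parental (3532). There was 1 between 4T1OE and parental tumours (3073) and 0 between hosts (955). Lrp1, an endocytic receptor that clears many ligands from the cell surface, was the largest of them, with 15.13 ± 0.17 (SD, n = 4) in 4T1OE and 13.94 ± 0.52 (n = 4) in 4T1OE-CTL tumours (difference 1.20, limma adjusted p = 0.139).

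The genes whose values over the 11 fitted arrays were most like those of each member were found by Pearson correlation across arrays that share line, host and array spread. For F5 they were Gzmb (r = 0.928), Rab8b (0.925) and Rbck1 (0.919). For F13a1 they were Dmtn (r = 0.946), Sulf2 (0.938) and Tcn2 (0.926), and with all 12 arrays both F5 and F13a1 kept the same 3 genes. For F10 they were Ndel1 (r = 0.933), Pdgfrb (0.901) and Tut7 (0.888), and for Plat they were Carhsp1 (r = 0.899), Plaat3 (0.857) and Adal (0.856). For Plau they were Ccn2 (r = 0.876), Prkg2 (0.856) and Atr (0.850), and for Plaur they were Mtmr6 (r = 0.921), Dhrs9 (0.913) and Adipor2 (0.910). With all 12 arrays the genes most like Plau became Mtap (r = 0.946), Atr (0.940) and Junb (0.938), and those of F10, Plat and Plaur changed too. F3, F7 and Thbd lay near background, and their nearest genes were Cox8c (r = 0.912), Fam20c (0.906) and Tfip11 (0.903).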

How the data were processed

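The deposited values were log2 expression values, which the authors normalized and summarised to 1 value per feature and array. Per the submitters' processing notes this was done in the Transcriptome Analysis Console. Its version and normalization method are not given in the sources used here, and no scaling was added. Of 28846 features, 6640 controls were left out and 22206 were tested. Gene symbols came from the platform annotation.

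Linear models (limma 3.58.1, R 4.3.3) were moderated with eBayes, and two-sided p-values were adjusted over all features by Benjamini-Hochberg at 0.05. The fit used 11 of 12 arrays. It left out the array whose label recommends exclusion, so the single Nlrx1-/- parental array is assumed to vary like the other groups. Additive effects of host and line gave the averaged comparisons, and 1 mean per group gave those within a host or line. Some sides had every array at or under the median of its 5222 negative control features. There a bound on the difference of means was computed with that median as the floor. It carries no sampling error. The fits were tested on simulated data. The manufacturer's control array had an empty column and was not used.

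The 9 genes were named in every comparison. Of 2 wider pathway lists, the genes that passed and Tfpi, Procr and F2r were named, and for each of the 9 genes the 3 most similar features with a mean above the median feature. Lrp1, Cd163, Folr2, Ccr2, Ly6c2 and Plac8, and the list members under background, were chosen after their values were seen. The genes, pathway lists and 14 cell type marker lists were chosen with earlier results of these data known. Results for 4 unmatched genes of the plasminogen list and 1 of the coagulation list are not analysed here. Promoter windows were found for 6 of the 9 genes. Replicate numbers were not treated as pairs in the main fits. Between deviations r ran from -0.31 to 0.37 and was above 0.1 in 2 of 10 pairs of groups. A shared replicate structure in some groups is thus not excluded.

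Alternatives were all 12 arrays, quantile normalization, a filter on the dimmest 33.3% of features, robust moderation with a trend on intensity, array weights, the console's usual rule (a fold of at least 2 with an unadjusted p under 0.05), a replicate block, the standard deviation of each array as a covariate, leaving out arrays whose standard deviation was under 3, other samples or means in the fit, and each array left out in turn.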

Additional observations from a re-analysis of the deposited data

Results flagged for a closer look

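Plau on the array of Nlrx1-/- parental replicate 1 stood at 9.001, far below the other parental arrays, of which the nearest was at 11.31 and the highest at 11.64. The gap made up 0.876 of the range of the 4 parental arrays. This is the array that its label recommends to exclude, and it was not in the fits. It was the only such value among 27 groups of arrays examined for the 9 genes, and chance flags about 1 in 20 groups.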

How the results depend on the processing

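For 4T1OE against 4T1OE-CTL tumours, 2 of the 9 genes were called. The number was 3 after quantile normalization, with Plat added, 0 with all 12 arrays, 0 with the standard deviation as a covariate, 1 without arrays of low standard deviation, 1 with 1 mean per group and 0 to 2 with each array left out in turn. For 4T1OE-CTL against parental tumours it was 2, and it was 1 with all 12 arrays and 1 to 2 with each array left out. For 4T1OE against parental tumours it was 0, and it became 1 with array weights, 4 under the console's rule, 2 without arrays of low standard deviation, 1 with the compared groups alone, 1 with 1 mean per group and 0 to 1 with each array left out. These were F5 (compared groups alone, adjusted p = 0.0206), F7, at or near background, and under the console's rule F10 and Plaur as well. The console's rule also called 1 gene between hosts (F13a1), 2 within WT hosts and 2 within Nlrx1-/- hosts between 4T1OE and 4T1OE-CTL, and 2, 1 and 2 between hosts in 4T1OE-CTL, 4T1OE and parental tumours. Within WT hosts the compared groups alone gave 1, and within Nlrx1-/- hosts leaving out an array gave 0 to 1. With the replicate block the number was 2 in 4T1OE against 4T1OE-CTL and 2 in 4T1OE-CTL against parental tumours, and the block moved the features called from 1051 to 882 and from 575 to 480, within Nlrx1-/- hosts from 265 to 57 and within WT hosts from 3 to 1. Features called between 4T1OE and 4T1OE-CTL were 25 with all 12 arrays, 4 with the standard deviation as a covariate, 15 without arrays of low standard deviation and 577 (373 higher, 204 lower, against 820 and 231) after quantile normalization, 2140 (1511 higher, 629 lower) with array weights, and ran from 70 to 2663 with each array left out. Between 4T1OE-CTL and parental tumours they ran from 126 to 880, and 157 were called with all 12 arrays and 147 with the compared groups alone. Between 4T1OE and parental tumours 666 were called with array weights and 151 with the standard deviation as a covariate, against 295, and 83 to 342 with each array left out. Within WT hosts 26 were called with array weights and 31 with the compared groups alone, against 3. The cause of these changes was not tested, beyond the smaller number of arrays where some were left out. No direction of a called difference reversed. Fits without arrays of low standard deviation could not be made where both Nlrx1-/- 4T1OE-CTL arrays are needed, nor the parental host comparison without Nlrx1-/- parental replicate 2. Signal at or under the negative controls limits F7, F3, Thbd and parental F5.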
